A study of Anas platyrhynchos with 2 samples.

Results

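The 200 most compact multi-exon genes on the larger autosomes of a duck breed, Fujian Longyan Shan-ma (Anas platyrhynchos), are described here from the counts of 2 RNA-seq libraries. They were chosen by gene structure alone, without use of any count. On the 23 autosomes on which the genes in the table reach 10 Mb or more, 5821 of the table's 11383 genes had 5 to 20 exons and were eligible. Values for eligible genes include the compact ones. For each, the span from first to last exon base was divided by its summed exon length, and the 200 genes with the smallest quotient were taken, 3.44% of the eligible genes. Library A is labelled liver, pancreas, intestine, stomach and blood, and library B ovary, brain, skin, eye, muscle, kidney, heart, spleen and lung. The series text instead describes RNA of an adult female and an adult male, testis replacing ovary in the male, pooled in equal amounts over all tissues. The file headers name alignments DF01 and DF02, neither of them a library name of the labels, so which organ list belongs to A and which to B rests on the file record and is uncertain. Whether A and B hold different organs at all is not settled by these sources. No treatment or genotype beyond the breed is given. Each label has 1 library, so every comparison below is a description of these libraries with no replicate and no test.

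Introns are removed from the transcript by the spliceosome, which needs a minimum of sequence between its recognition sites, and most of the length of a typical vertebrate gene is intron. In several animals, human and Caenorhabditis elegans among them, strongly expressed genes tend to have shorter introns. Bird genomes combine a few large chromosomes with many small, gene-rich ones on which introns tend to be shorter. The genes carry IDs that matched 0 of 26024 entries of a reference table of duck genes, so neither a name nor a function can be given to any of them. Without names, no marker of the labelled organs was checked. Genes are given by position on the study's own assembly.

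By the way they were chosen, the compact genes were short for their exon length. Their quotient ran from 1.16 to 1.83, with a median of 1.60, against 5.78 for all eligible genes. A gene at the median thus spanned 1.60 times its exon length. The median span was 4682 bp against 19671 bp, while the median exon length was nearly alike at 3022 bp and 3267 bp. Compact genes held a median of 1766 intron bases, against 15644 in eligible genes. They had fewer exons, with a median of 7 against 10, and 64 of the 200 had exactly 5, the lowest number allowed.

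Their introns were short, which follows from the same choice, and many lay near a lower size limit. Among 1334 introns the median was 172 bp, and 24.5% measured 70 up to 100 bp, against 4.75% of the 55973 introns of eligible genes. Introns of 100 up to 200 bp made up a further 29.99%. Below 70 bp there were few, 10 of 30 up to 70 bp and 1 under 30 bp. This shortest intron, of 23 bp, lay in a gene of 7 exons on the minus strand of chromosome 3 at 46527478 to 46529790. That gene was among the most abundant of the set, as given further on. Introns here are gaps between annotated exons, and whether so short a gap is spliced out was not tested.

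**Figure D1:**
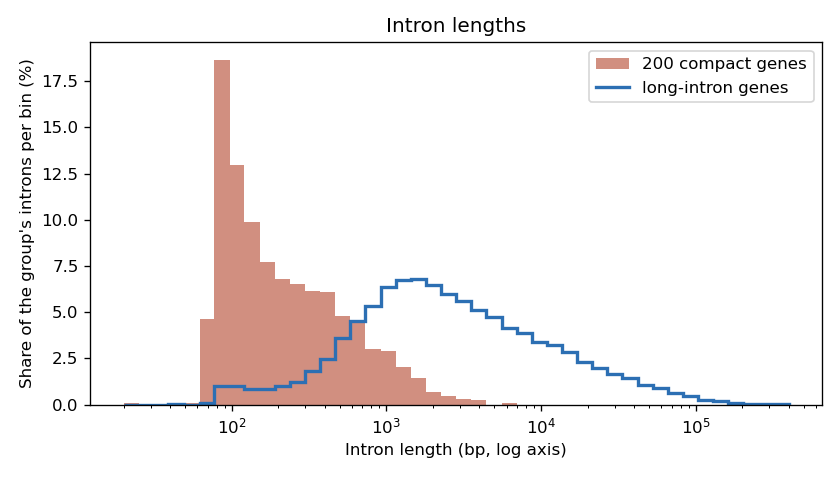
Share of introns (vertical axis, percent of each group's introns) by intron length in bp (horizontal, log axis) for the 200 compact genes (filled) and for 1941 long-intron genes (line). The compact genes peak just under 100 bp (median 172 bp), and the long-intron genes lie mostly over 1000 bp (median 2251 bp).

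The label of short introns held for most, but not for all, of these genes. The median intron of a gene was under 200 bp in 103 genes and under 500 bp in 162. In 38 genes it was 500 bp or more, up to 1468 bp, and some of these qualified through long exons. The clearest case lay on the minus strand of chromosome 8 at 16848349 to 16871188, with 5 exons and 17419 bp of exon, of which 93.2% was 1 exon. Its quotient was 1.31 although its introns measured 392 to 2094 bp. Others had less exon than the eligible median of 3267 bp. An example on chromosome 19 at 868206 to 873053 had 5 exons, 2660 bp of exon and a median intron of 622 bp. Over the 200 genes the longest exon held a median of 51.9% of exon length, close to the 52.7% of eligible genes. At the median a single large exon thus weighed alike in both, while the upper quartile was higher in compact genes, 74.5% against 68.2%.

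The first intron of a vertebrate gene is often its longest, and it often holds regulatory sequence. It was the longest in 72 of the 200 compact genes (36.0%), where an even spread over positions would give 17.7% for these exon numbers. Among eligible genes the share was 38.3% with 12.8% from an even spread. The median first intron was 307 bp in compact genes and 2094 bp in eligible ones. The excess over an even spread was thus present in both, and larger among eligible genes.

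The most compact gene, Apl_15G0003450, had its place on chromosome 15 at 17740977 to 17744619 (plus strand) and had 5 exons, 3129 bp of exon and only 514 bp of intron. Its level was 50.8 and 56.0 CPM (counts scaled to the same total) in libraries A and B. The second, Apl_1G0009010, on chromosome 1 at 75356662 to 75360403 (plus strand), had 562 bp of intron and 22.6 and 27.0 CPM. In both genes a single exon made up most of the exon length, 82.9% and 82.3%. The third, on chromosome 11 at 12834137 to 12841569, had 7.41 and 6.46 CPM, and the fourth, on chromosome 19 at 1027036 to 1030668, had 40.8 and 43.2 CPM. The fifth, on chromosome 13 at 13098310 to 13100347, was of another kind, since its largest exon held 36.9% of exon length and its 5 introns measured 76 to 95 bp. It was the only one of all 5821 eligible genes in which every intron was under 100 bp, and it had 15.2 and 15.8 CPM. The 5 most compact genes therefore included neither a very abundant nor a silent gene.

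At the threshold, the last 3 genes inside had quotients of 1.823 to 1.828 and the first 3 outside 1.830 to 1.836. The genes inside, on chromosomes 19, 4 and 18, had 15.3, 33.6 and 27.4 RPKM (CPM per kilobase of exon, averaged over both libraries). Those outside, on chromosomes 7, 18 and 12, had 13.3, 1814 and 1.01 RPKM. The second gene outside, on chromosome 18 at 7926342 to 7928095, would have ranked 3 in level among the compact genes. A count of very abundant compact genes therefore depends on where the limit lies.

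Compact genes lay closer to other genes than eligible genes did. The median distance to the nearest gene in the table was 1154 bp, against 4501 bp for eligible genes and 10756 bp for 1941 long-intron genes, the eligible genes with a quotient of 8.42 or more. A neighbour lay within 1 kb of 92 compact genes (46.0%) and of 23.4% of eligible genes. On autosomes of 10 to 30 Mb this share was 50.5% against 29.6%, and on autosomes over 30 Mb it was 41.1% against 19.7%, so the difference was present in both size classes. In 25 cases (12.5%) a neighbour within 1 kb was transcribed divergently, against 7.52% of eligible genes. Among genes with any neighbour within 1 kb these were 25 of 92 compact and 438 of 1360 eligible genes. The higher share over all compact genes is thus not separate from their closer spacing. Since the table does not hold every ID number of the annotation, true distances may be shorter.

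Smaller chromosomes had more compact genes for their number of eligible genes. The 15 autosomes of 10 to 30 Mb held 105 of the 200, or 4.89% of their 2146 eligible genes. The 8 autosomes over 30 Mb held 95, or 2.59% of 3675. Chromosome 19 had the highest share, 15 of 138 (10.9%), followed by chromosome 25 with 7 of 68 (10.3%). Chromosome 1 had 17 of 1001 (1.70%), chromosome 14 had 1 of 149 and chromosome 33 had 0 of 51. The order by size was not strict. Compact genes also lay near chromosome ends more often, 24.5% within 2 Mb of an end as far as the table reaches, against 11.4% of eligible and 7.01% of long-intron genes. Small chromosomes have more of their length near an end, and the part of chromosome size in this figure was not tested.

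**Figure D2:**
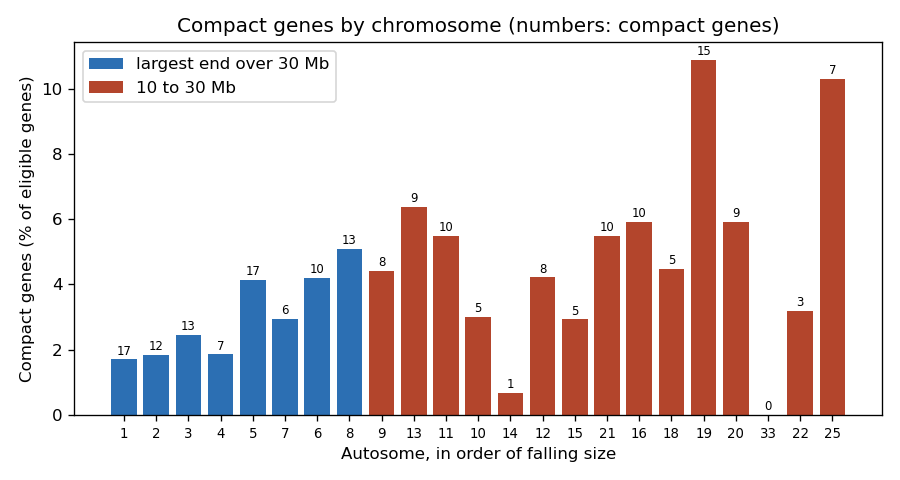
Compact genes as a percentage of the eligible genes (vertical axis) of each of 23 autosomes in order of falling size (horizontal axis), with the number of compact genes over each bar. Shares run from 0 on chromosome 33 and 0.671% on chromosome 14 to 10.9% on chromosome 19.

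Some compact genes stood together. They formed 21 groups of 2 or 3 genes next to each other in the table, with 45 genes in all, and 17 of the 24 adjacent pairs were on the same strand. In 0 of these pairs did both genes share their inner exon lengths, so adjacent compact genes were not recognisable copies of each other by structure. Such counts were not taken for other genes, so neither the grouping nor the shared strand can be called particular to compact genes. Ranked by number of compact genes, with levels already seen, the richest stretch under 1 Mb was on chromosome 5 at 29867170 to 30558502. There, 11 of 29 eligible genes were compact. Another stretch lay on chromosome 19 at 844672 to 1417948, where 8 of 19 were compact and all 8 were on the minus strand. The strands of the other genes there were not compared. Both stretches held one of the most abundant genes of the set beside genes of ordinary level.

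The chromosome 5 stretch spanned almost the whole range of levels in the set. Its most abundant gene, at 29988040 to 29990227, had 3783 and 3841 CPM in libraries A and B. The gene next to it at 29976963 to 29982052, on the same strand, had 35.7 and 35.03 CPM. The last gene of the stretch, at 30554287 to 30558502, had only 3 and 4 reads, or 0.150 and 0.0954 CPM. Being compact and close together thus went with neither a common high nor a common low level there. On chromosome 19 the gene at 1351961 to 1355105 had 2846 and 2904 CPM, and the other 7 genes of the stretch had 12.2 to 46.5 CPM in library A and 12.8 to 50.7 CPM in library B.

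Reads were counted for all 200 compact genes in both libraries. The libraries held 20047449 (A) and 41792653 (B) reads counted over the table. The sparsest gene had 7 reads over both, 199 genes had at least 10 reads in at least 1 library, and 173 had at least 100 reads in each. The median gene had 524 and 1124 reads in the 2 libraries. A count of 0 allows up to 3 reads, or 0.150 and 0.0715 CPM. In library A, 2 genes with 2 and 3 reads did not exceed that limit, and in library B all 200 genes did.

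Per kilobase, the typical compact gene was not more abundant than other genes. The median level was 7.93 RPKM in library A and 8.33 RPKM in library B, or 7.92 RPKM averaged, with quartiles of 3.95 and 16.7. Eligible genes had a median of 10.9 RPKM with quartiles of 4.46 and 25.3, and long-intron genes 9.98 RPKM with quartiles of 4.04 and 22.9. The quartile ranges overlapped widely. Levels under 1 RPKM were seen in 19 compact genes (9.50%), where 4.69% of eligible genes were that low. Levels of at least 100 RPKM were seen in 8 (4%), where the share of eligible genes was 5.94%.

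Each compact gene was then set against long-intron genes with the same number of exons and an exon length within 20%. At least 5 such comparators existed for 193 genes, with a median of 22, and 7 genes, all with more than 5000 bp of exon, had fewer. The median compact gene stood at 0.903 times the median of its comparators, a log2 difference of -0.15 with quartiles of -1.44 and 0.83. It was above its comparators in 87 of 193 cases (45.1%), where 51.9% of all eligible genes were above theirs. In library A alone the median log2 difference was -0.24 with 84 above, and in library B -0.13 with 89 above. The spread between genes was many times larger than this shift. Within the quartiles of their comparators lay 97 of 193 compact genes, and 2529 of 5653 eligible genes.

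**Figure D3:**
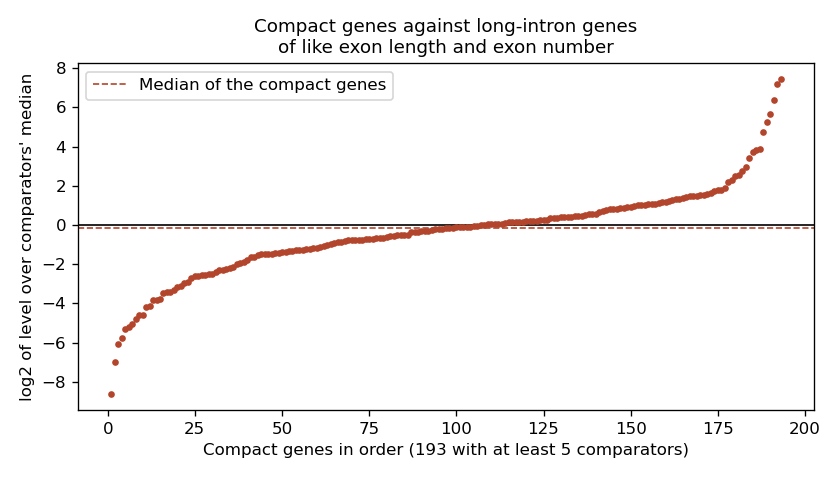
Level of each of 193 compact genes over the median of its comparators on the log2 scale (vertical axis), in rising order (horizontal axis), with the median of the compact genes dashed at -0.15. Most points lie within 2 units of 0, while 6 genes at the right end lie at least 16-fold above their comparators and 12 at the left end at least 16-fold below.

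Large differences from the comparators were seen in both directions. Compact genes were at least 2-fold lower in 63 cases (32.6%), where 28.5% of eligible genes were, and at least 2-fold higher in 42 (21.8%), where 28.6% were. At 4-fold, 37 were lower (19.2%) against a background of 15.7%, and 16 were higher (8.29%) against 12.2%. At 16-fold, 12 were lower (6.22%) against 4.32%, and 6 were higher (3.11%) against 2.19%. These shares are near the background, and genes of 1 genome are not replicates.

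Long-intron genes were themselves not of one level. The eligible genes were divided by quotient into 10 groups of equal size. The median was 9.50 RPKM in the most compact group, reached 12.9 RPKM in the seventh, and was 7.24 RPKM in the group with the longest introns. Level thus followed no single direction with compactness, and Spearman's rho between quotient and level was -0.039 across 5821 genes, which share 2 libraries. Against genes with a quotient of 4.16 to 8.42, a comparison chosen after the values were seen, the compact genes had a median log2 difference of -0.59, with 69 of 193 above. The share of all eligible genes above such comparators was not taken, so this value cannot be called particular to compact genes. The upper end of the groups differed more. The 99th percentile was 1087 RPKM in the most compact group, highest in group 3 at 1115 RPKM, 665 RPKM in group 4, 823 RPKM in group 6, and 124 RPKM in the group with the longest introns.

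**Figure D4:**
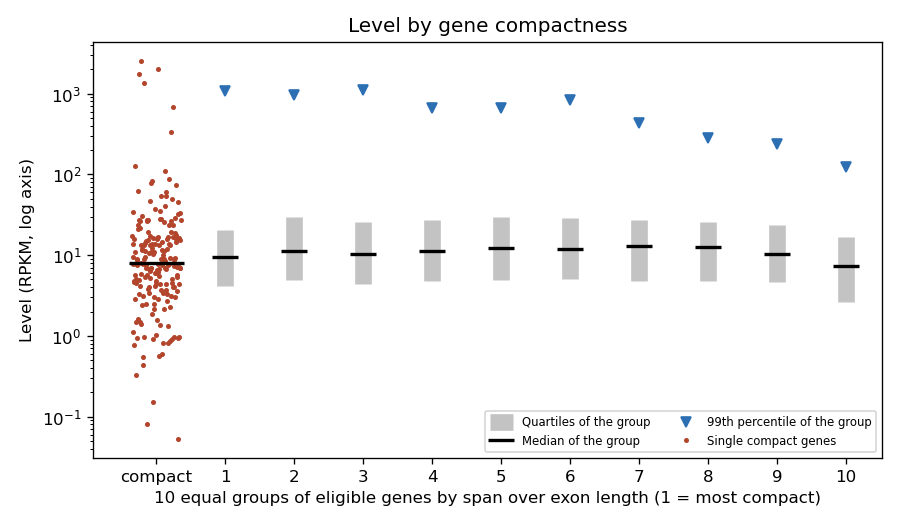
Level in RPKM (vertical, log axis) of the single compact genes (left, points, median as a line) and of the eligible genes in 10 groups from most compact (1) to longest introns (10), as medians, quartiles and 99th percentiles. Medians stay between 7.24 and 12.9 RPKM, while the 99th percentile lies between 124 RPKM in group 10 and 1115 RPKM in group 3, with 1087 RPKM in group 1.

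A few very abundant genes stood apart from the rest of the set. Over 1000 CPM were reached in both libraries by 6 compact genes (3%), where 0.756% of eligible genes were that abundant. At least 1000 RPKM was reached by 4 (2%), against 0.55% of eligible genes and 1 of the 1941 long-intron genes. The 200 compact genes, 1.76% of the genes in the table, took 2.93% of the reads of library A (Clopper-Pearson 95% interval 2.92 to 2.93) and 2.97% of those of library B (2.96 to 2.97). The 6 genes alone took 2.07% and 2.09%, and the other 194 took 0.859% and 0.879%. The 6 were picked by their reads, so a lower share without them follows from that choice. The 1941 long-intron genes, 17.1% of the table, took 12.4% in each library. All 5821 eligible genes, of 11383 in the table, took 61.0% and 60.6%. Intervals cover counting error only. They treat the mates of a pair as separate reads, so they are too narrow even for that error.

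The highest level per kilobase belonged to Apl_5G0004350, the gene on the minus strand of chromosome 5 at 29988040 given above. It had 8 exons, 1515 bp of exon and 7 introns of 75 to 163 bp. Its level was 2497 RPKM in library A and 2535 RPKM in library B, which placed it eighth in the whole table. Its 28 comparators had a median of 16.9 RPKM, so it stood 149-fold above them.

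The gene with the most reads, Apl_3G0009110, was found on chromosome 3 at 90692297 to 90699344 (plus strand), with 8 exons and 4332 bp of exon. It alone took 0.895% and 0.876% of the reads of libraries A and B, with 2073 and 2015 RPKM. It stood 174-fold above its 25 comparators. The gene on chromosome 3 at 46527478 with the 23 bp intron had 1696 and 1761 RPKM, 38.9-fold above comparators whose own median, 44.5 RPKM, was the highest of any compact gene's. The gene on chromosome 19 at 1351961 had 1342 and 1370 RPKM.

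The remaining members above 1000 CPM had more exons. On chromosome 9 at 9738685 to 9741997 a gene with 11 exons had 673 and 704 RPKM, and another gene lay 30 bp from it. On chromosome 11 at 23821959 to 23827609 a gene with 20 exons had 334 and 341 RPKM, 27.1-fold above its comparators. With strand ignored in counting, reads of very close genes cannot always be told apart.

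The next 4 by level were far lower. On chromosome 3 the genes at 64771200 to 64774306 and 64337245 to 64345815 had 126 and 111 RPKM. A gene on chromosome 10 at 13294652 to 13300707 had 87.3 RPKM, and one on chromosome 6 at 4040963 to 4042664 had 82.1 RPKM. The gene on chromosome 6 was 2.83-fold above its 15 comparators, whose quartiles of 13.8 and 131 RPKM include it. Against comparators with a quotient up to 21.6 its log2 difference was -0.67, so its direction depends on that choice.

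At the low end, single genes stood as far from their comparators as at the high end. The lowest was the gene at the end of the chromosome 5 stretch, at 0.0526 RPKM, 397-fold below the 20.9 RPKM of its 28 comparators. The gene at 30522081 to 30526161 in the same stretch had 21 and 39 reads and 0.330 RPKM. On chromosome 3 at 117613130 to 117624189 a gene with 7262 bp of exon had 13 and 22 reads and 0.0809 RPKM. On chromosome 25 at 10027170 to 10030916 a gene had 2 and 26 reads, and on chromosome 6 at 25116143 to 25119698 one had 16 and 54. Folds on so few reads are imprecise, and whether these genes are active in a tissue that forms little of either library cannot be seen here.

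Within the set, level in RPKM went with exon length and, less clearly, with intron length. RPKM divides by exon length, so an order by exon length can come partly from the measure. CPM by exon length was not compared. The choice by quotient also ties intron length to exon length, and the parts of each were not separated. Compact genes with under 2000 bp of exon had a median of 14.4 RPKM (46 genes), those of 2000 up to 3000 bp 8.55 RPKM (52), those of 3000 up to 5000 bp 7.5 RPKM (55) and longer ones 5.99 RPKM (47). Eligible genes showed the same order, from 22.6 to 7.0 RPKM, and were higher at each length. In RPKM, the gap between compact and eligible genes was thus wider among short genes. Relative to comparators there was no order by exon length, with median log2 differences of -0.21, -0.72, 0.11 and -0.08 from the shortest group to the longest. The 25 genes with a median intron under 100 bp had a median of 16.7 RPKM with quartiles of 2.45 and 26.7, against 8.81 RPKM for 78 genes of 100 up to 200 bp. It was 7.37 RPKM for 59 genes of 200 up to 500 bp and 6.94 RPKM for 38 genes above. Eligible genes had 16.7 RPKM under 100 bp (67 genes, these 25 included), then 11.3, 14.7 and 10.2 RPKM in the groups above. Against their comparators the compact genes showed no steady order by intron length, with median log2 differences of 0.18, -0.34, -0.55 and 0.17.

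Exon number gave a similar picture. The 64 genes with 5 exons had a median of 7.60 RPKM and the 36 genes with 11 to 20 exons 13.6 RPKM. Against comparators, 21 of these 36 were above, and 29 of 61 of those with 5 exons. Genes with 6 or 7 exons were the lowest relative to their comparators, with a median log2 difference of -0.71 and 21 of 56 above. By degree of compactness within the set, the 50 most compact had a median of 7.75 RPKM and the 50 least compact 9.17 RPKM. Against comparators, their median log2 differences were -0.41 (21 of 48 above) and 0.13 (26 of 50 above), and the 2 groups of 50 between them had -0.12 and -0.46, in no steady order.

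The surroundings of a compact gene went with its level only slightly. The 92 genes with a neighbour within 1 kb had a median of 9.47 RPKM, and the 49 genes with none within 5 kb had 6.96 RPKM. For eligible genes the same medians were 14.1 and 9.31 RPKM. The 25 genes with a divergent neighbour within 1 kb had 13.3 RPKM, against 15.2 RPKM for 438 such eligible genes. On autosomes of 10 to 30 Mb compact genes had 7.70 RPKM against 12.03 RPKM for eligible genes, and on larger ones 8.71 against 10.2 RPKM. The lower median of the compact genes was thus present in both size classes.

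Few compact genes had a structural copy. Inner exon lengths were shared with another gene in the table by 7 of the 200 (3.50%), as by 3.49% of eligible genes. The partner was not itself compact in any of the 7 cases. On chromosome 19 the compact gene at 4425466 to 4431033 had 24.7 and 23.8 CPM, while its partner at 4438831 to 4441549 had 409 and 382 CPM. On chromosome 18 the compact gene at 10519435 had 76.8 and 77.6 CPM and its partner at 10512806 had 60.3 and 56.1 CPM. Multi-mapping reads were left out of the counts and sequence was not compared, so these counts may be uncertain.

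Library B set against library A showed compact genes at nearly equal levels. Labels and series text disagree on which tissues each library holds, so this cannot be read as equal levels across different organs. Of the 199 tested, 179 (89.95%) were within 1.2-fold in either direction, against 89.3% of all 11256 genes tested. At least 2-fold higher in library B was 1 gene, where 0.489% of all genes passed that limit, and 0 passed it toward library A, where 0.267% of all genes did. The 1 gene was that on chromosome 25 at 10027170, with 2 and 26 reads, and the interval of its ratio from read pairs, 0.930 to 263, includes 1. No test was run, since there is no replicate, so no count by p-value exists.

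Small differences leaned toward library B. The log2 ratio was above 0 in 128 of 199 compact genes (64.3%), where 49.8% of all tested genes were above 0. The median log2 ratio was 0.04, against -0.00066 for all tested genes, and the median absolute deviation among compact genes, scaled to an SD, was 0.11. Among the same 10 groups of eligible genes by quotient, the median was 0.02 in the most compact one and between -0.02 and -0.0019 in the other 9. The lean was present on autosomes of 10 to 30 Mb, with 70 of 105 compact genes above 0 (66.7%) against 50.5% of eligible genes. It was also present on autosomes over 30 Mb, with 58 of 94 (61.7%) against 44.6%. The size of the median, under 3%, is far below the difference between single genes. By mean CPM, the compact median was 0.072 under 10, 0.037 from 10 up to 30, 0.052 from 30 up to 100, and 0.014 above. For all tested genes the medians in the same order were 0.034, 0.017, -0.0046 and -0.011. Whether base composition or another property of these genes moves with the lean was not tested.

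**Figure D5:**
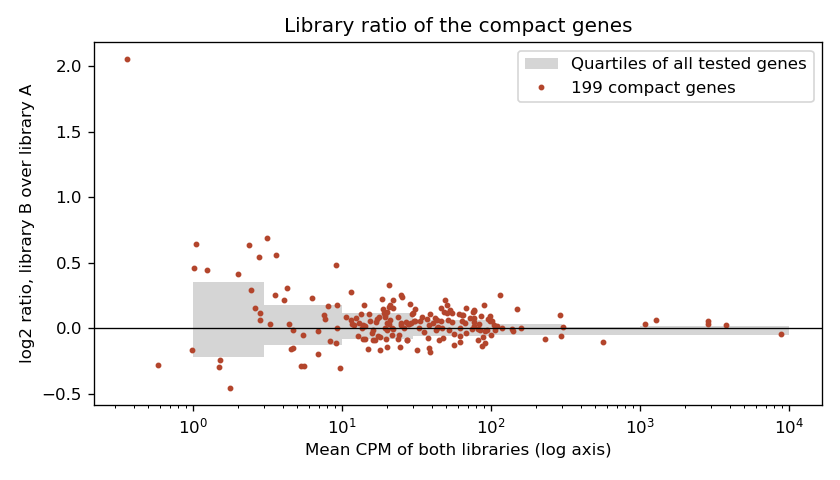
log2 ratio, B over A (vertical axis) against mean CPM (horizontal, log axis) for 199 compact genes, with the quartiles of all tested genes as grey bands. Most points lie close to 0, 128 of 199 lie above it, and the single point near 2 rests on 2 and 26 reads.

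Where the higher library had at least 100 reads, the widest ratios were modest. Apl_1G0021660, on the minus strand of chromosome 1 at 205881945 to 205884664, had 48 and 164 reads in libraries A and B, or 2.40 and 3.91 CPM. Its ratio was 1.63 (95% interval from read pairs 1.02 to 2.68). Apl_19G0002150, with 17 exons on chromosome 19 at 8634898 to 8641495, had 1.85 and 2.91 CPM, a ratio of 1.57 (0.942 to 2.90). A gene on chromosome 4 at 18710882 to 18716916 had 2.90 and 4.32 CPM, a ratio of 1.49 (0.963 to 2.33). All 3 had fewer than 60 reads in library A.

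In the other direction, the ratios of genes passing the same limit were smaller. Since library A is less deep, 100 reads there stand for a higher CPM than in library B, so the limit leaves out more weak genes on this side. One such gene, picked after its values were seen, lay on chromosome 7 at 8167950 to 8171370, with 41 and 62 reads and a log2 ratio of -0.46. Apl_22G0002390, on the minus strand of chromosome 22 at 7923166 to 7927435, had 10.7 and 8.63 CPM in libraries A and B, which is 1.24-fold higher in A (95% interval 0.958 to 1.57). Apl_5G0008370, on chromosome 5 at 53807933 to 53809304, had 6.11 and 4.98 CPM, 1.23-fold higher (0.882 to 1.70). A gene on chromosome 1 at 207343234 to 207345997 had 5.86 and 4.79 CPM. The intervals of these 3 include a ratio of 1. The most abundant compact genes were nearly equal in both libraries, as the values of the 6 genes above show.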

How the data were processed

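Raw read counts per gene were deposited for 2 libraries, and per the file headers featureCounts 2.1.1 produced them. The submitters' processing notes also list HISAT2 and SAMtools, with no version. Not given in the sources used here are the build name, trimming and aligner settings. The recorded command sets paired-end mode, exon features and gene IDs, with no option for strand, read pairs or multi-mapping reads, so mates count separately and strand is ignored. The headers name alignments (DF01 and DF02) that match no library name of the labels, so files were tied to labels by the file record alone.

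Counts were scaled with TMM factors (0.997 and 1.003, edgeR 4.0.16 in R 4.3.3), structure was computed with Python 3.11.15, and the log2 ratio used a prior count of 2 where either library had at least 10 reads. Intervals are exact binomial at 95%, those of ratios from counts halved to pairs, and the procedure was tested on simulated data. The quasi-likelihood test was not run for lack of replicates. Named genes were the 10 highest, 5 lowest, 5 most compact, 3 on each side of the threshold and 3 per library direction with at least 100 reads. Other genes, and the stretches on chromosomes 5 and 19, were chosen after values were seen. The rule and comparisons were chosen with earlier results of these data known. Other scalings, filters, comparators and limits were tried.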

Additional observations from a re-analysis of the deposited data

How the results depend on the processing

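The median log2 difference between compact genes and their comparators was below 0 under all 22 alternatives, from -0.59 to -0.11, with 35.8% to 46.7% of genes above. Shares of all eligible genes above their comparators were not taken under these alternatives. The value of -0.59 came with comparators of a quotient from 4.16 to 8.42, chosen after seeing the data, as were 3 others of the 22, namely comparators with a quotient up to 21.6 and each side of a split at a median intron of 200 bp. The gene on chromosome 6 at 4040963, at 1.5 in the main comparison, stood at -0.17 and -0.67 under the former 2, since comparators changed.

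The median log2 ratio of the libraries stayed between 0.026 and 0.048 under 10 alternatives, with 59.5% to 69.3% of compact genes higher in library B. The 69.3% came with total counts, where 53.8% of all tested genes were higher in library B and their median was 0.01. With upper-quartile factors the shares were 66.8% of compact and 52.4% of all tested genes. The 1 gene higher in library B became 0 with at least 50 reads and 4 at 1.5-fold, and the 0 in library A stayed 0 under the 6 alternatives run. Shares of all tested genes at these other limits were not taken, so these counts have no background to be read against. Shares of reads in libraries A and B were 2.43% and 2.49% without the 10 most abundant genes of the table, 1.34% and 1.38% for the 100 smallest quotients, 4.42% and 4.48% for the 400 smallest, and 0.859% and 0.879% without the 6 most abundant compact genes, a setting added after seeing the data. Of 388 alternatives for single named genes, 245 kept the value within its counting interval, 141 moved it and 2 reversed it, as given. No paired analysis was possible because there is only 1 library for each label, and no library could be left out. Depth limits genes with few reads: under 10 CPM the scaled median absolute deviation of the log2 ratio among 41 compact genes was 0.35, against 0.05 for 22 above 100 CPM.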
